A study of Homo sapiens with 6 samples.

Results

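The lysosome and autophagy genes described here are 49 named genes: the MiT/TFE transcription factors, lysosomal membrane proteins and hydrolases, subunits of the vacuolar proton pump, and the autophagy receptor, ATG8-family and core autophagy genes. They were chosen by symbol among the 60624 Ensembl genes of the table by a rule that uses names only. The list of names was itself drawn up with earlier results of these data known, so its shares beside those of all tested genes are a description. All 49 were found, and all 49 were among the 14778 genes tested.

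The samples were A549 cells, an established line of human lung adenocarcinoma, and the comparison asked what lowering CEP20, a centrosomal protein gene, did to the transcriptome. The 3 siCEP20 samples received small interfering RNA (siRNA) against CEP20 and the 3 siCTR samples a control siRNA, with 3 days of transfection per the labels. The labels do not say which CEP20 siRNA was used or whether the 3 samples of a group were separate cultures, so the p-values measure the spread between these samples, which may be technical. The labels give a different medium, RNA kit and amount of RNA from the study's methods, and in 1 field name a plasmid transfection in place of siRNA. Both groups share the A549 background.

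Lysosomes are acidic organelles that degrade proteins, lipids and glycans. Their acidity comes from the V-ATPase, a rotary proton pump with a V0 sector in the membrane and a V1 sector in the cytosol. Macroautophagy delivers cytoplasm to them: the ULK1 and BECN1 complexes start a membrane, the ATG5, ATG7 and ATG12 conjugation machinery attaches ATG8-family proteins to it, and receptors such as SQSTM1 (p62) bring cargo. TFEB, TFE3 and MITF bind a short promoter motif found near many of these genes and are known as their transcriptional activators.

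Values are TPM, a measure of transcript abundance that divides by transcript length, so levels may be compared between genes. The depth of each library is unknown. Differences are log2 fold changes of TPM + 1, siCEP20 against siCTR, from limma, and this scale understates changes of genes with low TPM. A gene "passed" at an adjusted p under 0.05 (Benjamini-Hochberg over all tested genes) and was "called" when its fold change was also over 1.5 or under 0.67. Over all tested genes the log2 fold change had a median of 0.13, which median-of-ratios scaling of the libraries brought to 9.4e-05. Of all calls, 70.9% were higher without scaling and 44.8% with it. Sums of TPM over genes are given as deposited, without scaling. CEP20 was lower in all siCEP20 libraries, at 51.4% of its siCTR mean. Of 8 epithelial or A549 markers all were tested, 6 passed as higher and 2 as lower. Summed immune markers were at 9.03 to 12.4 TPM in siCTR and 9.10 to 10.95 TPM in siCEP20, with CD3E at 0 throughout and PTPRC at 0 in 5 of 6 libraries. Summed endothelial markers were at most 0.125 TPM. Summed fibroblast markers went from 5.39 to 6.15 TPM in siCTR to 17.7 to 20.2 TPM in siCEP20, nearly all of it COL1A1, with DCN at 0 in every library. The part of these markers in the results was not tested. In bulk RNA, fewer cells that express a gene and less of its RNA per cell cannot be told apart.

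The lysosome and autophagy genes moved in both directions. Of the 49, 19 passed as higher (38.8%, against 30.2% of all tested genes) and 12 as lower (24.5%, against 13.2%), and 18 did not pass. The called genes were TFEB, MITF, ATP6V0C, ATP6V1G1 and ULK1 among the higher ones (5, or 10.2%, against 11.2% of all tested genes) and LAMP1, ATP6V0B, ATP6V1D, MAP1LC3B and ATG5 among the lower ones (5, or 10.2%, against 4.61%). For 21 of the 49 all siCEP20 values lay above all siCTR values (42.9%, against 38.4% of all tested genes), for 13 they lay below (26.5%, against 17.0%), and for 15 the groups overlapped. The median log2 fold change of the 49 genes was 0.048, or -0.084 once the median over all genes was subtracted. The plot of log2 fold changes by role shows the called genes on both sides of 0 within the pump and within the autophagy machinery.

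**Figure D1:**
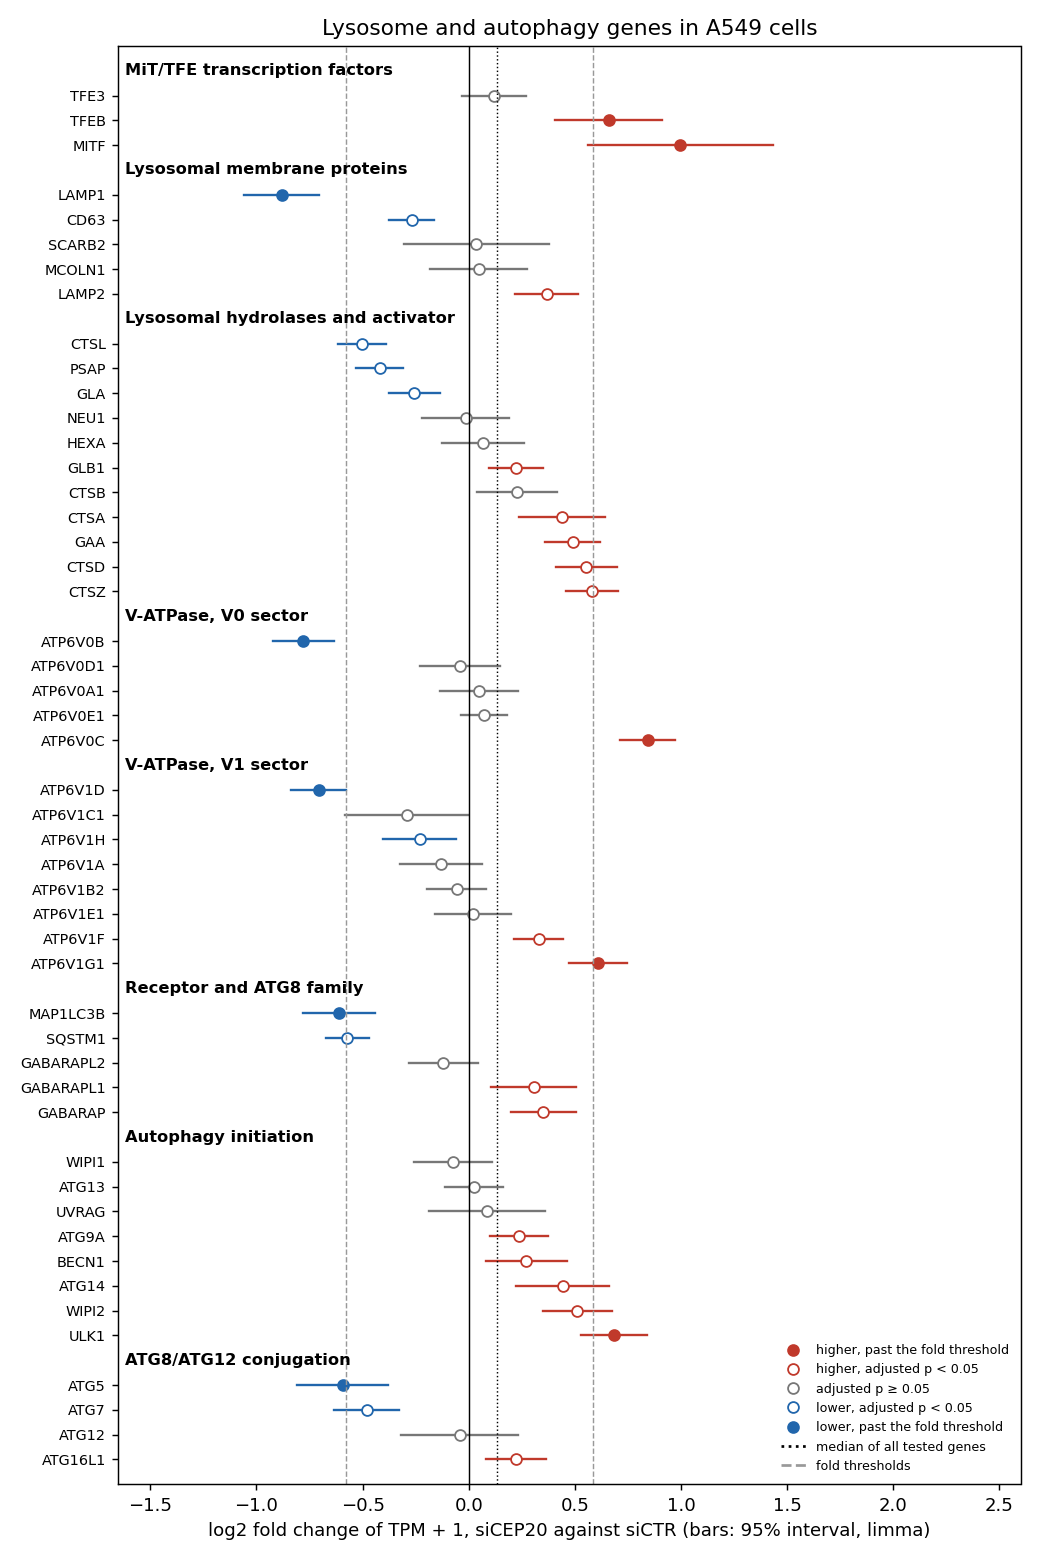
Log2 fold change of TPM + 1 (siCEP20 against siCTR, x axis) of each of the 49 genes, grouped by role, with bars for limma's 95% interval. Filled points passed both thresholds, and the V-ATPase sectors each hold a called gene on either side of 0.

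The direction of the balance depended on the scale between libraries. After median-of-ratios scaling, 14 of the 49 genes passed as higher (28.6%, against 20.1% of all tested genes) and 18 as lower (36.7%, against 21.6%). Called genes were then MITF and ATP6V0C among the higher ones (2, or 4.08%, against 6.05% of all tested genes) and 8 among the lower ones (16.3%, against 7.46%), namely the same 5 genes with CTSL, SQSTM1 and ATG7. The median of the 49 genes was then -0.096. TFEB, ATP6V1G1 and ULK1 still passed as higher with scaling, at 0.53, 0.46 and 0.54, below the fold threshold. GLB1, GABARAPL1, ATG9A, BECN1 and ATG16L1 passed as higher only without scaling, and ATP6V0D1, ATP6V1A, ATP6V1B2, ATP6V1C1, GABARAPL2 and WIPI1 passed as lower only with it. None of the 49 was called in opposite directions under any setting tried. SQSTM1 (-0.57) and CTSZ (0.58) lay just short of the fold thresholds without scaling.

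**Figure D2:**
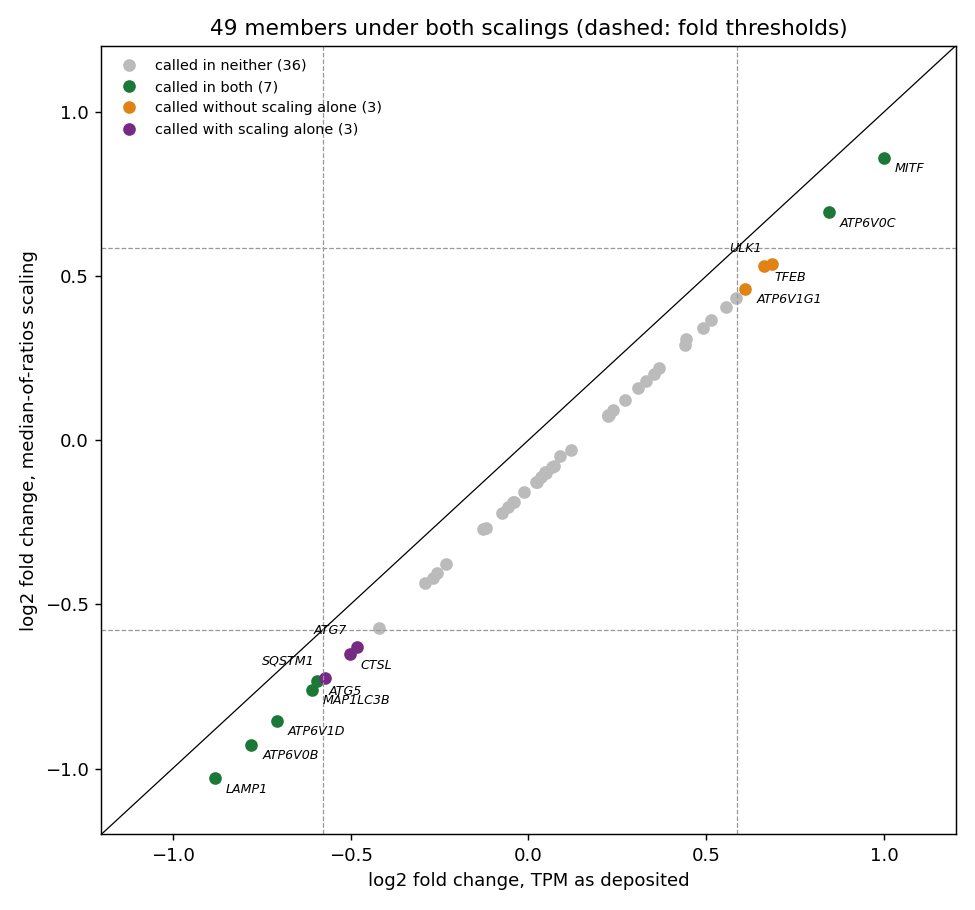
Log2 fold change of the 49 genes with the TPM as deposited (x axis) and after median-of-ratios scaling (y axis), with the fold thresholds as dashed lines and the diagonal as a solid line. All points lie below the diagonal, 7 genes were called under both scales, 3 only without scaling and 3 only with it.

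Among the transcription factors, TFEB and MITF were higher and TFE3 did not pass. TFEB (ENSG00000112561, chr6:41683978-41736259, hg38, minus strand) encodes the best known activator of lysosomal genes. Its TPM was 5.45, 5.09 and 4.42 in siCTR and 8.74, 8.76 and 7.85 in siCEP20. The siCEP20 values were all above the siCTR values, and the mean went from 4.99 ± 0.521 to 8.45 ± 0.515 (SD, n = 3). The log2 fold change was 0.66 (standard error 0.110, 95% interval 0.41 to 0.91, limma adjusted p = 0.00203). MITF (ENSG00000187098, chr3:69739456-69968336, plus strand), best known as the regulator of melanocyte genes, had 6.90, 9.77 and 10.96 TPM in siCTR and 14.8, 21.2 and 22.1 TPM in siCEP20. The groups did not overlap, although the values spread more widely on the log2 scale than those of any other called gene of the 49, with an interval of 0.56 to 1.43 around a log2 fold change of 1.00 (standard error 0.190, limma adjusted p = 0.00383). TFE3, the third member, was by far the most abundant of the family, with 110.4, 106 and 122 TPM in siCTR and 120.3, 123 and 125 TPM in siCEP20. Its groups overlapped, and its interval, -0.030 to 0.27, held 0 (limma adjusted p = 0.172). With scaling its log2 fold change was -0.030. The summed TPM of the family was 127 ± 9.14 in siCTR and 151 ± 5.95 in siCEP20 (SD, n = 3), most of it TFE3. TFEB and ATG14 had the lowest levels of the 49 in both groups.

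RefSeq promoters (GRCh38.p14, 250 bases before to 50 after the start site) were at hand for 39 of the 49 genes, and were searched for TCACGTGA, the core of the motif that MiT/TFE factors are known to bind. The motif is its own reverse complement, so both strands are covered, and it contains the shorter E-box CACGTG. A gene was counted when any of its promoters held the motif. By that count it stood in 6 of the 39 genes (15.4%) and in 13 of 142 other pathway genes listed below (9.15%). It stood in 2.33% of 10511 tested genes and in 1.18% of all 27305 genes with a promoter. The E-box stood in 11 of the 39 (28.2%), in 21.8% of the other pathway genes, in 12.8% of tested genes and in 8.77% of all genes with a promoter. The 6 promoter stretches are shown because their genes share the motif but not the direction of change. The motif is in capitals, the flanks on either side are 25 bases, and each stretch is written 5′ to 3′ on the strand of its gene.
LAMP1: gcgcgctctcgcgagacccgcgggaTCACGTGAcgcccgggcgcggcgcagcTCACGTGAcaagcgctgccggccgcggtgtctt
ATP6V1G1: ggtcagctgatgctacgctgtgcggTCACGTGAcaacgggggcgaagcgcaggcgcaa
GAA: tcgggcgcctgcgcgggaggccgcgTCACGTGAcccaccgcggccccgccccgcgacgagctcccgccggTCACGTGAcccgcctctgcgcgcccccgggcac
CTSA: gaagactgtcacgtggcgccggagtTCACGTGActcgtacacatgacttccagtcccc
MCOLN1: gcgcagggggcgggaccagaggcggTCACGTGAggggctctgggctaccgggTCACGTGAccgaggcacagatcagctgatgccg
ATP6V0D1: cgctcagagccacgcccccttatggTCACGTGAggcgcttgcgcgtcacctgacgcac

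Of these 6 genes, LAMP1 was lower, ATP6V1G1, CTSA and GAA were higher, and MCOLN1 and ATP6V0D1 did not pass. The LAMP1 stretch (chr13:113297185-113297269, plus strand) holds the motif 29 and 2 bases before the start site, counted to the motif's first base. The others are ATP6V1G1 (chr9:114587685-114587742, plus strand), GAA (chr17:80101479-80101581, plus strand), CTSA (chr20:45891284-45891341, plus strand), MCOLN1 (chr19:7522557-7522641, plus strand) and ATP6V0D1 (chr16:67481185-67481242, minus strand). The start sites of CTSA, GAA, ATP6V1G1 and ATP6V0D1 lie inside the genes as GENCODE places them, with that of CTSA the farthest in. The median log2 fold change was 0.24 for the 6 genes with the motif, which ran from -0.88 to 0.61. It was 0.048 for the 33 without the motif, of which 15 passed as higher, 9 as lower and 9 did not pass. For the shorter E-box the order was the other way, with a median of 0.047 for the 11 genes with it and 0.084 for the 28 without. A match describes letters in the window and not binding. No promoter was at hand for LAMP2, CTSB, HEXA, PSAP, ATP6V0E1, ATP6V1A, ATP6V1B2, ATP6V1C1, ATP6V1H and UVRAG.

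Among the 5 membrane proteins, LAMP1 fell, LAMP2 rose, CD63 fell, and SCARB2 and MCOLN1 did not pass. With scaling the same genes passed in the same directions. LAMP1 (ENSG00000185896, chr13:113297239-113323672, hg38, plus strand) encodes a heavily glycosylated protein that is a main component of the lysosomal membrane. Its TPM was 107, 104 and 112 in siCTR and 55.0, 54.9 and 64.4 in siCEP20. All siCEP20 values were below all siCTR values, and 54.0% of the siCTR mean remained. LAMP1 had a log2 fold change of -0.88 (standard error 0.0766, 95% interval -1.06 to -0.70, limma adjusted p = 0.000114) and stayed called under all 14 alternatives tried. LAMP2, the related protein also needed for chaperone-mediated autophagy, had 54.9, 58.9 and 59.2 TPM in siCTR and 73.9, 78.5 and 71.8 TPM in siCEP20. Its groups did not overlap, and its log2 fold change was 0.37 (standard error 0.0641, 95% interval 0.22 to 0.51, limma adjusted p = 0.00256). It did not pass after correction for transcript length and GC content. In siCTR libraries LAMP1 had the higher level of the pair, and in siCEP20 libraries LAMP2 had. CD63, a tetraspanin of late endosomes and lysosomes, was the most abundant of the 5, with 605, 589.8 and 569 TPM in siCTR and 484, 495 and 484 TPM in siCEP20. Its groups did not overlap, with a log2 fold change of -0.27 (standard error 0.0458, limma adjusted p = 0.00231). SCARB2, a sorting receptor of the lysosomal membrane, ranged from 44.5 to 64.9 TPM over the 6 libraries, and MCOLN1, a lysosomal calcium channel, from 13.9 to 17.4 TPM. Both overlapped between groups, with 95% intervals of -0.30 to 0.38 and -0.18 to 0.28 for the log2 fold change. Changes of either sign within those bounds were thus compatible with the data.

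**Figure D3:**
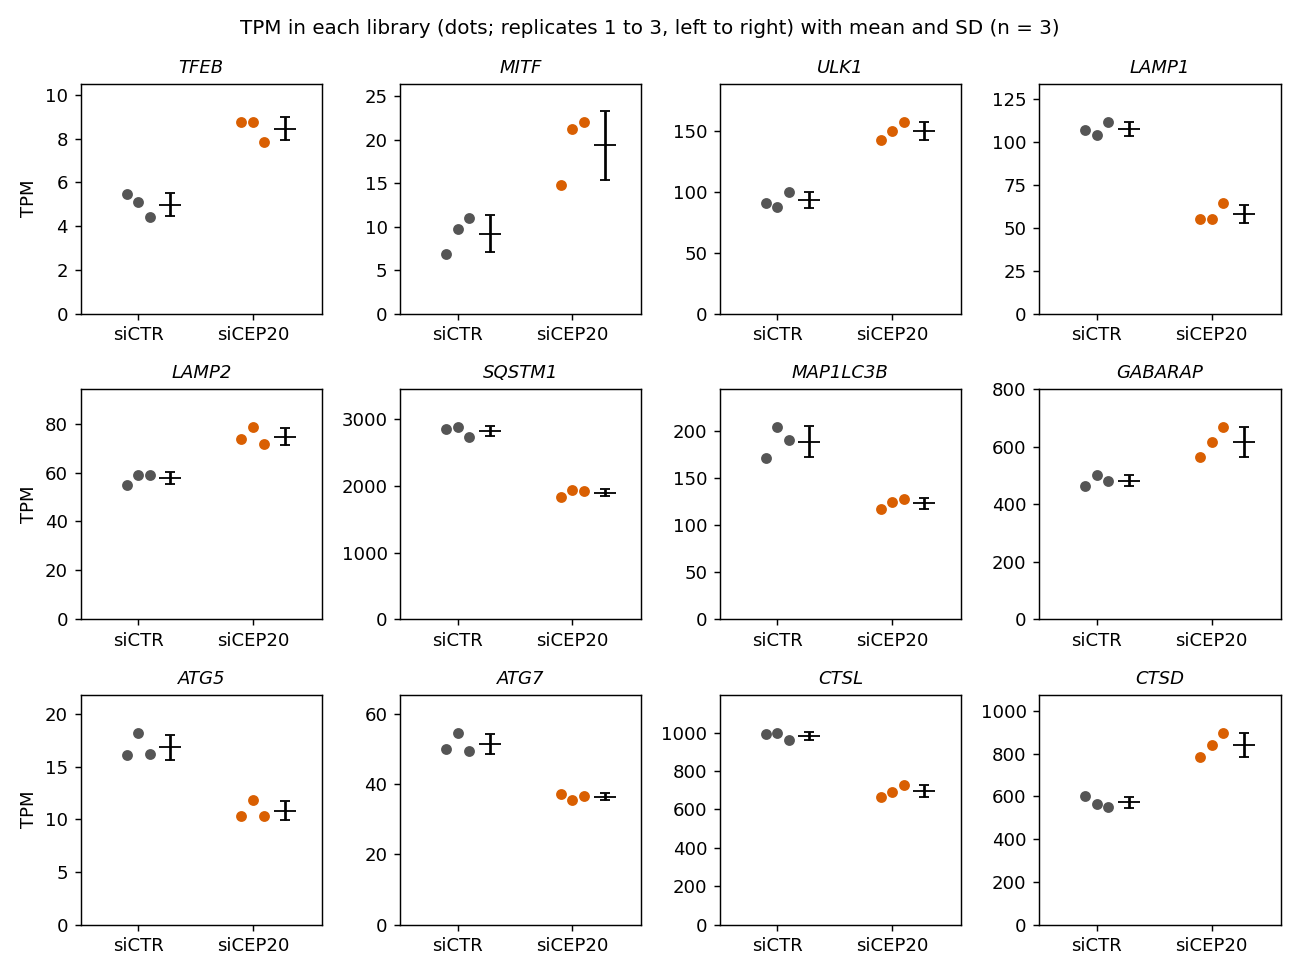
TPM (y axis, from 0) of 12 of the genes in the 3 siCTR and 3 siCEP20 libraries (dots), with the mean and SD of each group beside them. TFEB, MITF, ULK1, LAMP2, GABARAP and CTSD lie higher in siCEP20 and LAMP1, SQSTM1, MAP1LC3B, ATG5, ATG7 and CTSL lower, with no overlap between groups in any of the 12.

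The 11 hydrolase genes, PSAP included, divided by gene. Of them, 5 rose (45.5%, against 30.2% of all tested genes), 3 fell (27.3%, against 13.2%) and 3 did not pass. The 8 that passed stayed short of the fold thresholds. With scaling 4 rose (36.4%, against 20.1%) and 3 fell (27.3%, against 21.6%). The 2 most abundant in siCTR both fell. PSAP, the precursor of the saposins that help enzymes degrade sphingolipids, had 1706, 1698 and 1591 TPM in siCTR and 1218, 1287 and 1228 TPM in siCEP20. CTSL, a cysteine protease, had 992, 998 and 959 TPM in siCTR and 664, 692 and 727 TPM in siCEP20. Neither gene's groups overlapped, and the log2 fold changes were -0.42 (standard error 0.0483, limma adjusted p = 0.000386) and -0.50 (standard error 0.0497, limma adjusted p = 0.000199). CTSD, an aspartic protease, moved the other way, from 603, 564 and 548.6 TPM in siCTR to 786, 840.4 and 897 TPM in siCEP20. Its log2 fold change was 0.55 (standard error 0.0626, 95% interval 0.41 to 0.70, limma adjusted p = 0.000355). CTSL was thus above CTSD in every siCTR library and below it in every siCEP20 library.

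CTSZ, another cysteine protease, had 179, 182 and 185 TPM in siCTR and 259, 276 and 285 TPM in siCEP20, with a log2 fold change of 0.58 (standard error 0.0536, 95% interval 0.46 to 0.71, limma adjusted p = 0.000148). CTSZ shares 31.7% of its annotated exon bases with NELFCD on the opposite strand, and NELFCD went the other way, from 49.1 to 36.7 TPM on average. The strand setting of the quantification is not given in the sources used here. Likewise CTSD shares 22.9% of its exon bases with ENSG00000250644 on the same strand, which had means of 45.5 TPM in siCTR and 58.8 TPM in siCEP20, so reads of this pair may be split between them. CTSA, a serine carboxypeptidase that protects some glycosidases, had 113, 128 and 136 TPM in siCTR and 156, 171 and 185 TPM in siCEP20. GAA, the acid alpha-glucosidase that degrades glycogen, had 85.7, 79.5 and 81.7 TPM in siCTR and 113, 117 and 118 TPM in siCEP20. Both groups of values were separate, with log2 fold changes of 0.44 for CTSA (limma adjusted p = 0.00494) and 0.49 for GAA (limma adjusted p = 0.000382). GLB1, the lysosomal beta-galactosidase, rose by less, 0.22 (limma adjusted p = 0.0126), and did not pass with scaling.

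GLA, the alpha-galactosidase A, fell from 154, 149 and 157 TPM in siCTR to 129, 125 and 131 TPM in siCEP20, a log2 fold change of -0.26 (limma adjusted p = 0.00516). Its exons overlap RPL36A on the opposite strand over 8.99% of their bases, and RPL36A was at 817 TPM on average in siCTR and 827 TPM in siCEP20. CTSB, a cysteine protease, had 457, 409.7 and 375 TPM in siCTR and 522, 457 and 473 TPM in siCEP20. The lowest siCEP20 value lay only marginally above the highest siCTR value, and CTSB did not pass (log2 fold change 0.23, interval 0.040 to 0.42, limma adjusted p = 0.0526). HEXA, a subunit of beta-hexosaminidase, and NEU1, the lysosomal sialidase, overlapped between groups, with log2 fold changes of 0.067 (interval -0.13 to 0.26) and -0.014 (interval -0.22 to 0.19). Summed over the 11 genes, TPM was 4418 ± 131 in siCTR and 4212 ± 109 in siCEP20 (SD, n = 3).

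The V-ATPase genes moved subunit by subunit. Of the 13, 3 passed as higher (23.1%, against 30.2% of all tested genes), 3 as lower (23.1%, against 13.2%) and 7 did not pass. With scaling 3 passed as higher (23.1%, against 20.1%) and 7 as lower (53.8%, against 21.6%). In the V0 sector, ATP6V0C (ENSG00000185883, chr16:2513952-2520218, hg38, plus strand) and ATP6V0B (ENSG00000117410, chr1:43974487-43978295, plus strand) both encode proteolipids of the rotating membrane ring. ATP6V0C had 230.3, 239 and 240.2 TPM in siCTR and 407, 417 and 453 TPM in siCEP20, with a log2 fold change of 0.84 (standard error 0.0561, 95% interval 0.71 to 0.97, limma adjusted p = 4.91e-05). ATP6V0B had 176, 199 and 193 TPM in siCTR and 109, 107 and 113 TPM in siCEP20, with a log2 fold change of -0.78 (standard error 0.0623, 95% interval -0.92 to -0.64, limma adjusted p = 8.26e-05). The groups of both genes were far apart and in opposite directions, and both genes stayed called under all 14 alternatives. The other V0 genes did not pass. ATP6V0A1 (a stator subunit) ranged from 51.7 to 61.7 TPM over the 6 libraries and ATP6V0D1 (the link to V1) from 91.2 to 111 TPM, with overlapping groups. ATP6V0E1, a small membrane subunit, had 187, 185 and 184 TPM in siCTR and 192, 194 and 197 TPM in siCEP20, separate groups with a log2 fold change of 0.072 (interval -0.036 to 0.18) that turned to -0.079 with scaling. ATP6V0A1 had a log2 fold change of 0.048 (interval -0.13 to 0.23) and ATP6V0D1 of -0.039 (interval -0.23 to 0.15).

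**Figure D4:**
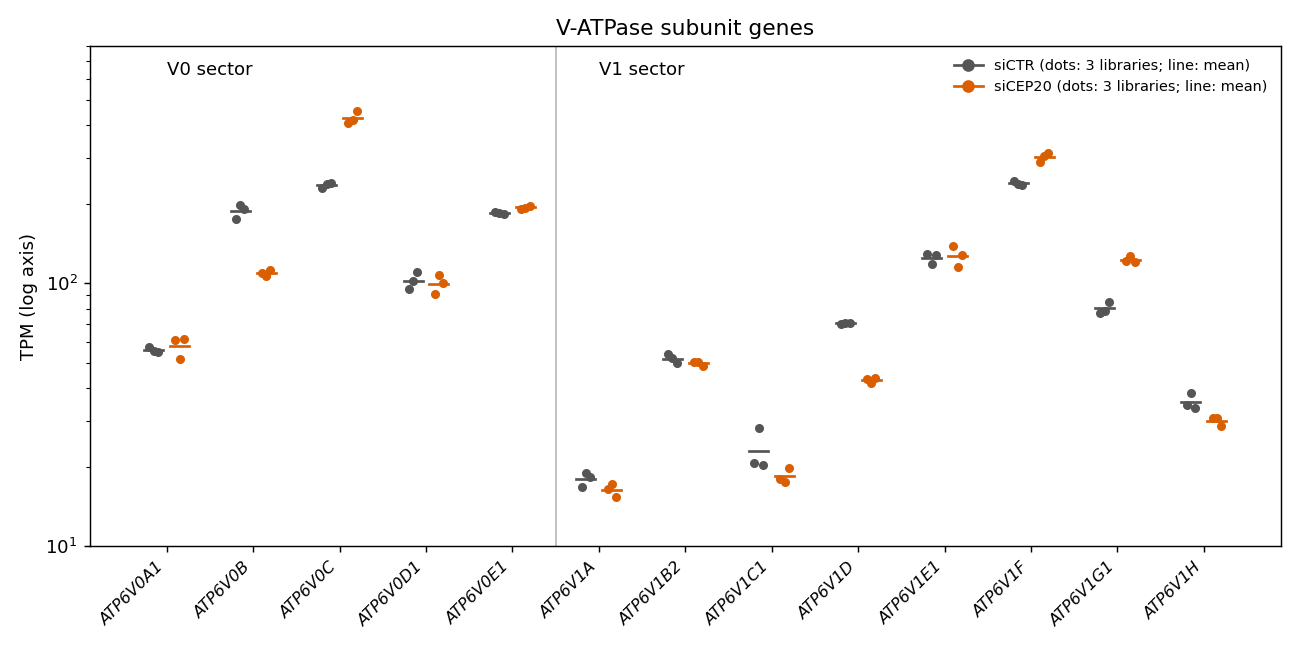
TPM (y axis, log scale) of the 13 V-ATPase genes, V0 to the left and V1 to the right of the grey line, with a dot for each of the 3 siCTR and 3 siCEP20 libraries and a line for the group mean. ATP6V0C, ATP6V1F and ATP6V1G1 lie higher in siCEP20, ATP6V0B, ATP6V1D and ATP6V1H lower, and most other subunits overlap or nearly touch.

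In the V1 sector, ATP6V1G1 (ENSG00000136888, chr9:114587706-114598915, hg38, plus strand), a subunit of the peripheral stalks, had 77.3, 78.6 and 84.9 TPM in siCTR and 121, 127 and 121 TPM in siCEP20. ATP6V1D (ENSG00000100554, chr14:67294371-67360265, minus strand), a subunit of the central rotor, had 69.9, 70.6 and 70.8 TPM in siCTR and 43.2, 41.6 and 43.5 TPM in siCEP20. Replicates of ATP6V1D differed little, with an SD of 0.499 TPM in siCTR and 0.989 TPM in siCEP20. The log2 fold changes were 0.61 (standard error 0.0594, 95% interval 0.47 to 0.75, limma adjusted p = 0.000187) for ATP6V1G1 and -0.71 (standard error 0.0566, 95% interval -0.84 to -0.58, limma adjusted p = 8.26e-05) for ATP6V1D. The call of ATP6V1G1 was lost without siCTR replicate 1, at 0.58, where it still passed. ATP6V1F, which joins the rotor, rose from 244, 238 and 237 TPM in siCTR to 289, 304 and 313 TPM in siCEP20 (log2 fold change 0.33, limma adjusted p = 0.00146). ATP6V1D and ATP6V1F thus moved in opposite directions. ATP6V1H, a regulatory subunit, fell from 34.4, 38.3 and 33.7 TPM in siCTR to 30.7, 30.7 and 28.7 TPM in siCEP20 (log2 fold change -0.23, limma adjusted p = 0.0369). The catalytic head was not called in either direction. ATP6V1A, the catalytic subunit, had a log2 fold change of -0.13 (interval -0.32 to 0.064) and ATP6V1B2, its partner, of -0.056 (interval -0.20 to 0.083), both with overlapping groups. ATP6V1C1, a stalk subunit, had 20.7, 28.1 and 20.3 TPM in siCTR and 18.0, 17.5 and 19.9 TPM in siCEP20. Its groups did not overlap, but siCTR replicate 2 stood above the other 2 and the gene did not pass (log2 fold change -0.29, limma adjusted p = 0.0961). ATP6V1E1, also of the stalks, ranged from 115 to 139 TPM with overlapping groups (log2 fold change 0.022). The summed TPM of the V0 genes was 769 ± 20.9 in siCTR and 887 ± 34.4 in siCEP20, and that of the V1 genes 644 ± 2.16 and 710 ± 7.74 (SD, n = 3). These sums are of TPM as deposited, without scaling. The median-of-ratios factors, which divide TPM, ran from 0.906 to 0.984 in siCTR and from 1.03 to 1.085 in siCEP20. Scaling thus lowers the siCEP20 sums relative to the siCTR sums, and the sums do not show a rise that holds on both scales.

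SQSTM1, the receptor that links ubiquitinated cargo to ATG8-family proteins, was the most abundant of the 49 genes in both groups. Its TPM was 2859.5, 2878 and 2731 in siCTR and 1840.5, 1932 and 1923 in siCEP20. All siCEP20 values were below all siCTR values, and the log2 fold change was -0.57 (standard error 0.0446, 95% interval -0.67 to -0.47, limma adjusted p = 7.42e-05). SQSTM1 was not called with the TPM as deposited but was called with scaling, at -0.72. On the opposite strand MRNIP shares 21.0% of the SQSTM1 exon bases and had means of 63.7 TPM in siCTR and 31.1 TPM in siCEP20, far below the level of SQSTM1.

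The ATG8 family, whose proteins are attached to the autophagosome membrane, moved unevenly. MAP1LC3B (ENSG00000140941, chr16:87383953-87404779, hg38, plus strand), the LC3 protein commonly used as an autophagosome marker, had 172, 204 and 191 TPM in siCTR and 117, 125 and 128 TPM in siCEP20. Its groups did not overlap, and the log2 fold change was -0.61 (standard error 0.0738, 95% interval -0.78 to -0.44, limma adjusted p = 0.000484). Its call was lost without siCTR replicate 2, at -0.55, and without siCEP20 replicate 1, at -0.57, where it still passed. GABARAP had 464, 501 and 481 TPM in siCTR and 566, 617 and 667 TPM in siCEP20, and GABARAPL1 had 71.2, 68.5 and 69.0 TPM in siCTR and 79.5, 99.0 and 81.7 TPM in siCEP20. Both rose, with log2 fold changes of 0.35 (limma adjusted p = 0.00389) and 0.31 (limma adjusted p = 0.0218), and GABARAPL1 no longer passed with scaling. GABARAPL2 had 94.5, 91.3 and 91.4 TPM in siCTR and 82.2, 79.9 and 93.3 TPM in siCEP20, overlapped between groups and did not pass without scaling (log2 fold change -0.12, interval -0.28 to 0.042). MAP1LC3B went from place 11 to place 17 in the order of mean levels among the 49, and GABARAP from 6 to 5. Summed over SQSTM1 and the 4 ATG8 genes, TPM was 3655 ± 89.7 in siCTR and 2810 ± 110 in siCEP20 (SD, n = 3).

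Of the 8 initiation genes, 5 rose (62.5%, against 30.2% of all tested genes) and 3 did not pass. With scaling 3 rose (37.5%, against 20.1%) and WIPI1 fell. ULK1 (ENSG00000177169, chr12:131894622-131923150, hg38, plus strand), the kinase that starts autophagy, had 91.2, 88.1 and 100.5 TPM in siCTR and 143, 150.4 and 158 TPM in siCEP20. Its groups did not overlap, and the log2 fold change was 0.69 (standard error 0.0684, 95% interval 0.53 to 0.84, limma adjusted p = 0.000205). WIPI2, which reads the lipid made by the BECN1 complex, had 38.5, 41.6 and 41.4 TPM in siCTR and 58.0, 62.0 and 54.8 TPM in siCEP20 (log2 fold change 0.51, limma adjusted p = 0.000884). ATG14, which directs the BECN1 complex to autophagy, had 7.29, 6.84 and 7.64 TPM in siCTR and 9.42, 10.5 and 10.8 TPM in siCEP20 (log2 fold change 0.44, limma adjusted p = 0.00707). ATG14 and FBXO34, on the opposite strand, share 20.8% of the ATG14 exon bases, and ATG14 did not pass after the length and GC correction. BECN1 itself rose by 0.27 (limma adjusted p = 0.0303) and ATG9A, a lipid scramblase on vesicles that seed the membrane, by 0.24 on the log2 scale (limma adjusted p = 0.013). Both changes were smaller than that of ULK1 and did not pass with scaling or after the length and GC correction. ATG9A shares 38.8% of its exon bases with ENSG00000284820 on the same strand, at 3.03 TPM on average in siCTR and 2.86 TPM in siCEP20. ATG13, a partner of ULK1, UVRAG, another partner of BECN1, and WIPI1, a relative of WIPI2, overlapped between groups, with log2 fold changes of 0.024 (interval -0.11 to 0.16), 0.088 (interval -0.19 to 0.36) and -0.074 (interval -0.26 to 0.11). The summed TPM of the 8 genes was 464 ± 13.4 in siCTR and 567 ± 13.6 in siCEP20 (SD, n = 3).

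In the conjugation machinery, ATG5 and ATG7 fell, ATG16L1 rose and ATG12 did not pass. With scaling ATG16L1 did not pass. ATG5 (ENSG00000057663, chr6:106045423-106325791, hg38, minus strand), to which ATG12 is joined, had 16.1, 18.2 and 16.2 TPM in siCTR and 10.3, 11.8 and 10.3 TPM in siCEP20. Its groups did not overlap, and the log2 fold change was -0.59 (standard error 0.0930, 95% interval -0.81 to -0.38, limma adjusted p = 0.00156). The call was lost without siCTR replicate 2 (-0.54), siCEP20 replicate 1 (-0.56) or siCEP20 replicate 3 (-0.56), where ATG5 still passed. ATG7, the activating enzyme of both conjugation reactions, had 49.9, 54.5 and 49.5 TPM in siCTR and 37.3, 35.5 and 36.5 TPM in siCEP20, with a log2 fold change of -0.48 (standard error 0.0666, 95% interval -0.63 to -0.33, limma adjusted p = 0.000883). ATG7 shares 18.1% of its exon bases with VGLL4 on the opposite strand, and VGLL4 went the other way, from 19.1 to 36.4 TPM on average. ATG16L1, the partner of the ATG12 and ATG5 conjugate, had 41.7, 42.2 and 39.7 TPM in siCTR and 47.3, 49.7 and 47.9 TPM in siCEP20 (log2 fold change 0.22, limma adjusted p = 0.0192). ATG12 overlapped between groups, from 33.3 to 44.7 TPM over the 6 libraries, with an interval of -0.32 to 0.23 for the log2 fold change.

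Together the 49 genes held 1.11%, 1.12% and 1.09% of the total TPM of siCTR replicates 1 to 3 and 0.985%, 1.02% and 1.04% of that of siCEP20 replicates 1 to 3, without overlap between groups. SQSTM1, PSAP and CTSL, which all fell, accounted for 48.7 to 49.9% of the TPM of the 49 genes in siCTR and for 37.3 to 38.2% in siCEP20. In the order of mean levels CTSD went from place 5 to 3 and CTSL from 3 to 4, while ATP6V0B went from place 10 to 21, LAMP1 from 19 to 32 and ULK1 from 22 to 13. Exons of 17 of the 49 genes overlap those of another tested gene, 4 on the same strand and 14 on the opposite strand, with CTSD in both counts.

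Genes of the same pathways outside the 49 were taken from 7 lists with 181 genes, of which 172 were tested. Of these, 49 passed as higher (28.5%, against 30.2% of all tested genes) and 26 as lower (15.1%, against 13.2%). With scaling the balance turned, to 28 higher (16.3%, against 20.1%) and 42 lower (24.4%, against 21.6%). Called genes numbered 10 among the higher (5.81%, against 11.2%) and 8 among the lower ones (4.65%, against 4.61%). With scaling 4 were called higher (2.33%, against 6.05%) and 14 lower (8.14%, against 7.46%). The median log2 fold change was 0.15, or 0.017 relative to all tested genes. In each list the 3 genes with the smallest adjusted p are named here.

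Of 42 other hydrolases and cofactors, 13 rose (31.0%, against 30.2% of all tested genes) and 4 fell (9.52%, against 13.2%). With scaling 5 rose (11.9%, against 20.1%) and 9 fell (21.4%, against 21.6%). The protease SCPEP1 (-0.83) and GALC, the galactocerebrosidase (-1.16), fell, and the cathepsin CTSH rose (0.82, all log2 fold changes). GALC had 28.8, 35.4 and 30.3 TPM in siCTR and 11.5, 15.5 and 13.9 TPM in siCEP20, groups far apart. Of 23 other membrane proteins 9 rose (39.1%) and 2 fell (8.70%), or 7 (30.4%) and 5 (21.7%) with scaling. CD164, a sialomucin (0.66), TMEM175, a lysosomal ion channel (0.75), and SPNS1, a lysophospholipid transporter (0.51), were all higher. Of 9 other V-ATPase genes 1 rose (11.1%), ATP6V1E2 (0.41), and 2 fell (22.2%), ATP6AP2 (-0.44) and ATP6V0D2 (-0.74, at 2.06 TPM on average in siCTR). With scaling 1 rose (11.1%) and 3 fell (33.3%). ATP6V0D2 did not pass without siCTR replicate 2, siCEP20 replicate 1 or siCEP20 replicate 3.

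Of 30 other autophagy core genes 7 rose (23.3%, against 30.2% of all tested genes), 5 fell (16.7%, against 13.2%) and 18 did not pass. With scaling 6 of the 30 rose, against 20.1% of all tested genes, and 6 of the 30 fell, against 21.6%. RB1CC1, a scaffold of the ULK1 complex (0.58), and SNAP29, a fusion protein (0.47), were higher, and ATG101, another ULK1 complex member (-0.35), was lower. Of 16 other receptors 5 rose (31.25%, against 30.2% of all tested genes) and 11 did not pass. The 3 with the smallest adjusted p were TAX1BP1 (0.57), NCOA4, the ferritin receptor (0.50), and OPTN (0.41). With scaling 3 receptors passed as higher (18.75%) and 1 as lower (6.25%). Of 26 sorting and fusion genes 11 rose (42.3%) and 6 fell (23.1%), or 4 (15.4%) and 9 (34.6%) with scaling. BORCS7, a subunit of the complex that positions lysosomes, fell (-0.84), and PLEKHM2 (0.42) and RAB7A (0.42), which act in lysosome transport and fusion, rose.

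The next list held 26 genes of mTORC1, the nutrient-sensing kinase complex of the lysosomal surface, and of its Rag regulators. Of these, 3 rose (11.5%, against 30.2% of all tested genes) and 7 fell (26.9%, against 13.2%). With scaling 2 rose (7.69%, against 20.1%) and 9 fell (34.6%, against 21.6%). LAMTOR1 (-0.60, limma adjusted p = 0.000132) and LAMTOR2 (-0.56, limma adjusted p = 0.000414), subunits of the Ragulator anchor, fell, and TSC2, an inhibitor of the pathway, rose (0.69, limma adjusted p = 0.000335). The other Ragulator subunits were looked at after these values were seen. LAMTOR4 (-0.67) and LAMTOR5 (-0.64) fell too, and LAMTOR3, at 9.56 TPM on average in siCTR, had 0.39 and did not pass (limma adjusted p = 0.0636). Summed over the 5 subunits, TPM was 618, 597 and 548.6 in siCTR and 369.9, 406 and 391 in siCEP20, without overlap. The subset was chosen on these samples and is no independent evidence of its direction.

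**Figure D5:**
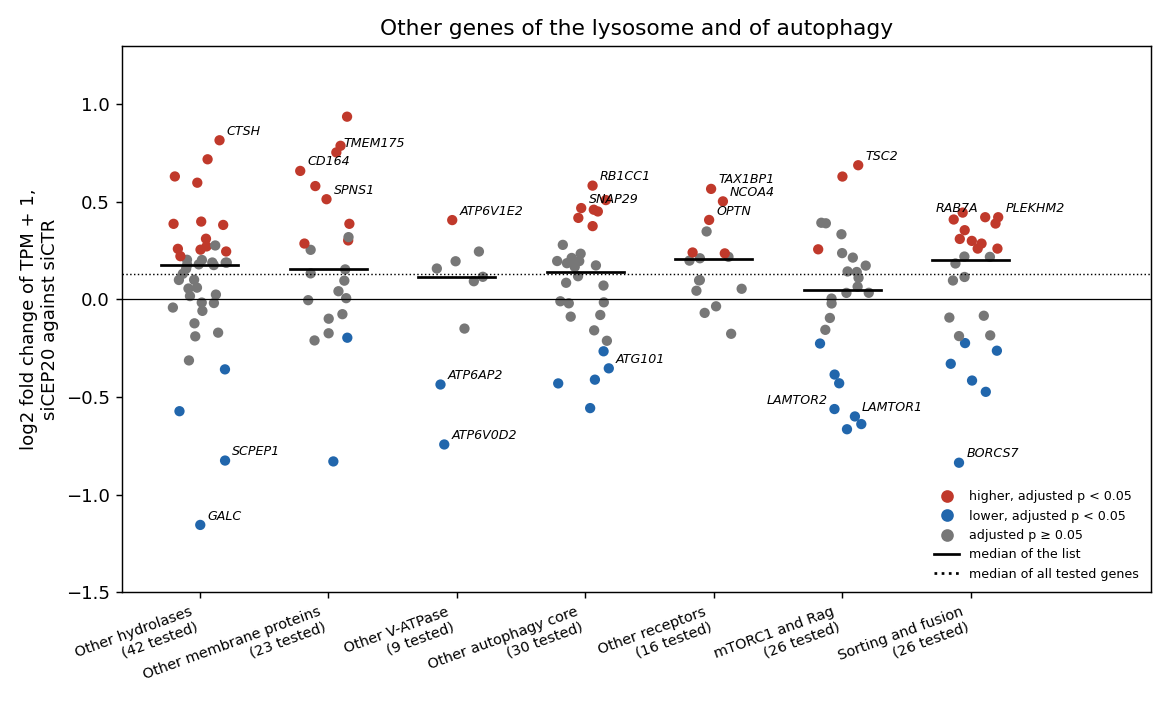
Log2 fold change of TPM + 1 (siCEP20 against siCTR, y axis) of the 172 tested pathway genes outside the 49, by list (x axis), with the median of each list as a bar and that of all tested genes, 0.13, as a dotted line. Genes past the test lie on both sides of 0 in every list but that of other receptors. There the 5 that passed were all higher (31.25%, against 30.2% of all tested genes).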

How the data were processed

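RNA-seq was analysed in 3 siCEP20 and 3 siCTR A549 samples, grouped by their titles. According to the study's methods and the submitters' processing notes, reads were trimmed with fastp 0.20.1, aligned to hg38 with HISAT2 2.1.0 and quantified with StringTie 2.0. The authors deposited TPM for each Ensembl gene and library in a single table. The annotation release and the strand setting are not given in the sources used here. TPM adds up to the same total in each library and holds no depth, so no counting interval was computed and precision rests on 3 samples per group. The authors tested read counts with DESeq2, and counts were not analysed here.

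IDs were named with GENCODE 44 (60370 of 60624 matched). Genes averaging 1 TPM or more over the 6 libraries were tested on log2(TPM + 1) in R 4.3.3 by limma 3.58.1, using lmFit and trended eBayes, unscaled and without a replicate term, with Benjamini-Hochberg adjustment. A fold change over 1.5 or under 0.67 was also required for a call. Fold thresholds were those of the study's methods. Single ratios were compared with a two-sided exact permutation test, which for 3 samples against 3 cannot give less than 0.1. Results were recomputed with median-of-ratios scaling, with quantile normalization, with loess curves of span 0.5 for transcript length and GC content subtracted, with a pseudocount of 0.1, with a minimum of 5 TPM or none, with untrended eBayes, with replicate numbers as blocks, and without each library. The main fit was also run on simulated data in which 200 genes had known changes beyond the fold thresholds. Of these, 86.5% were called, as were 11 unchanged genes. The simulated noise was independent between genes, and no shift over all genes was added. The simulation therefore does not bear on the choice of scale between libraries.

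The 49 genes and the lists were chosen with earlier results of these data known. The rule for named genes took CEP20, all 49 genes and, in each other list, the 3 tested genes with the smallest adjusted p. LAMTOR3, LAMTOR4 and LAMTOR5, the overlapping genes and the ratios of genes were named after their values were seen. Promoters came from RefSeq (GRCh38.p14). Tables and figures were made in Python 3.11.15 (matplotlib 3.10.9, pandas 2.3.3) and permutation tests with scipy 1.17.1.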

Additional observations from a re-analysis of the deposited data

How the results depend on the processing

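The calls of MITF, LAMP1, ATP6V0B, ATP6V0C and ATP6V1D held under all 14 alternatives, those of MAP1LC3B and ULK1 under 12, of TFEB and ATG5 under 11 and of ATP6V1G1 under 10. Genes called higher numbered 894 with median-of-ratios scaling, 923 with quantile normalization and 896 after the length and GC correction, against 1659, and genes called lower 1103, 1016 and 887, against 682. Of the 49 genes, 2 were called higher and 8 lower with median-of-ratios scaling, 4 and 6 with quantile normalization, and 2 and 7 after the correction. Their median log2 fold change was then -0.096, -0.030 and -0.079. Other pathway genes called higher numbered 4, 6 and 4, against 10, and 14 were called lower with median-of-ratios scaling, against 8. With each library left out in turn, 1372 to 1890 of the 14778 tested genes were called higher and 611 to 705 lower. Over the same fits, 5 to 7 of the 49 genes were called higher and 3 to 6 lower, and their median lay between 0.030 and 0.089. The count called lower was 3 without siCTR replicate 2 and without siCEP20 replicate 1, where MAP1LC3B and ATG5 fell short of the fold threshold. Calls were gained by SQSTM1 without siCTR replicate 3 (-0.60), siCEP20 replicate 2 (-0.58) or siCEP20 replicate 3 (-0.58), by CTSD without siCTR replicate 1 (0.59) or siCEP20 replicate 1 (0.60), and by CTSZ without siCTR replicate 3 (0.59) or siCEP20 replicate 1 (0.62). LAMTOR1 lost its call without siCEP20 replicate 1 and after the length and GC correction (-0.57 each), CD164 with median-of-ratios scaling (0.51), quantile normalization (0.58) and the correction (0.48), and TSC2 with median-of-ratios scaling (0.54) and the correction (0.46).

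Among the 49 genes, log2 fold changes changed sign only for genes that did not pass as reported. With median-of-ratios scaling they were -0.030 (TFE3), -0.11 (SCARB2), -0.096 (MCOLN1), -0.083 (HEXA), -0.10 (ATP6V0A1), -0.079 (ATP6V0E1), -0.13 (ATP6V1E1), -0.13 (ATG13) and -0.050 (UVRAG). With quantile normalization they were -0.047 (SCARB2), -0.10 (MCOLN1), -0.030 (ATP6V0A1), -0.017 (ATP6V1E1), -0.051 (ATG13) and -0.079 (UVRAG), and after the length and GC correction -0.033 (TFE3), -0.19 (SCARB2), -0.037 (MCOLN1), -0.14 (HEXA), -0.14 (ATP6V0A1), -0.0056 (ATP6V1E1), -0.16 (ATG13) and -0.14 (UVRAG). Over the libraries left out in turn they ran from -0.11 to 0.15 (SCARB2), -0.043 to 0.11 (MCOLN1), -0.021 to 0.13 (HEXA), -0.075 to 0.051 (NEU1), -0.094 to 0.023 (ATP6V0D1), -0.041 to 0.091 (ATP6V1E1), -0.019 to 0.046 (ATG13) and -0.15 to 0.053 (ATG12).

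Same-numbered samples did not deviate together, with correlations of 0.157, -0.0614 and -0.0623 for numbers 1 to 3, and only those of number 1 correlated best with their own number, so the numbers were not taken as pairs. With the replicate number as a block, 1654 genes were called higher and 694 lower, and the same 5 and 5 of the 49 genes were called. The cause of the changes with scaling was not tested. The unknown depth and 3 samples per group limit the precision.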

Other observations

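Ratios of genes within a library do not depend on the scale between libraries. For 5 pairs chosen after their values were seen, the ratio of LAMP1 to LAMP2 was 1.95, 1.76 and 1.89 in siCTR and 0.744, 0.700 and 0.897 in siCEP20, and that of ATP6V0B to ATP6V0C was 0.763, 0.831 and 0.802 in siCTR and 0.268, 0.257 and 0.249 in siCEP20. The ratio of MAP1LC3B to GABARAP was 0.370, 0.407 and 0.396 in siCTR and 0.206, 0.202 and 0.192 in siCEP20, that of ATG5 to ATG16L1 was 0.409 ± 0.0225 and 0.224 ± 0.0124, and that of CTSL to CTSD was 1.72 ± 0.0656 and 0.826 ± 0.0173 (SD, n = 3). The groups did not overlap in any of the 5 pairs, and p was 0.1 for each by an exact two-sided permutation test, which cannot go lower with 3 against 3, before any adjustment over the 5 pairs. Each pair divides a gene whose siCEP20 values all lay below its siCTR values by a gene whose siCEP20 values all lay above. Separate ratios and the smallest p were thus fixed by the choice of pairs, and the test adds no evidence.

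Further called pathway genes outside the 49 were named after their values were seen. The hydrolases TPP1 and SIAE, the membrane proteins TMEM192 and CD68 and the mTORC1 component AKT1S1 were called higher. The membrane protein LAMP3 was called lower.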
